A study of Homo sapiens with 3 samples.

Results

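The transcripts described here encode 9 proteins of the cytoskeleton: the actins ACTB and ACTG1, the actin regulators PFN1 and CFL1, the motor heavy chain MYH9, the tubulins TUBA1B, TUBB and TUBB4B, and the intermediate filament protein VIM. They were chosen by name, and their members are the same-strand intervals that overlap each gene's stated bounds in hg19. These intervals were 89 of 103134 clusters in replicate 1, 47 of 66222 clusters in replicate 2, and 10 of 2253 peaks in the authors' list of reproducible peaks.

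RNA bound by TIA1 was mapped in HEK293T cells, a line derived from human embryonic kidney that expresses an SV40 T antigen, by crosslinking and immunoprecipitation with sequencing (eCLIP). Ultraviolet light joins proteins to the RNA they touch, and RNA held by the precipitated protein is sequenced beside an input that was not immunoprecipitated. The groups were 2 replicates precipitated with anti-TIA1 and 1 input with no antibody, all from cells that received 600 mJ of ultraviolet light. The cells carried no further treatment or engineered allele in the labels. One protocol field gives the catalogue number of the TIA1 antibody to an Msi1 antibody, and the replicates are called technical in one field and biological in another, so a spread between them may be technical. Both replicates were compared with the same input, so the SDs between them do not fully cover its counting error.

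TIA1 recognises stretches of RNA rich in uridine, often beside splice sites in introns and in 3′ untranslated regions, and it represses translation and gathers in stress granules. Actin and tubulin messages are among the most abundant in growing cells. ACTB and ACTG1 encode nearly identical cytoplasmic actins but have different untranslated regions.

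The 3′ untranslated regions of these messages differ in uridine content. Below is the 30-base stretch of the 3′ untranslated region with the most uridine for 5 of the genes, shown because they range from the richest to the poorest. The sequences are from GENCODE release 29 transcripts, 5′ to 3′, written with T for U, and capitals mark runs of 3 or more.
ACTB: ttgTTTTgTTTTggTTTTTTTTTTTTTTTT
PFN1: TTTgTTTTTTggggTTTTTTTTTTctgaat
ACTG1: ttcattcttaaTTTatgtaaggTTTTTTTT
VIM: ttgaataccattaaaactgcTTTTTTTTTT
TUBB4B: tgctgTTTTccctgtccacatccatgctgt
The stretch held 26 uridines in ACTB, 21 in PFN1, 19 in ACTG1, 16 in VIM and 12 in TUBB4B. Among 13493 protein-coding transcripts, 1 per gene, the median was 18. ACTB stood at the 95.6th percentile and TUBB4B at the 9.58th. These stretches were taken from transcripts and were not placed on hg19, so they are not stated to lie under a given cluster.

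Of the 9 transcripts, 4 held reproducible peaks: ACTG1 with 5, PFN1 with 3, and ACTB and CFL1 with 1 each. TUBA1B, TUBB, TUBB4B, VIM and MYH9 held none. In the replicate lists, clusters with log2 fold over input and −log10 p both 3 or more, as the authors deposited them, are called enriched here. There were 9 enriched among 89 clusters of replicate 1 (10.1%, exact 95% interval 4.73 to 18.3) and 11 among 47 of replicate 2 (23.4%, 12.3 to 38.0). Over the whole lists the enriched shares were 3.09% (replicate 1) and 5.32% (replicate 2).

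These clusters also held more reads. The median cluster of the 9 transcripts had 7 reads in replicate 1 and 7.5 reads in replicate 2, against 4 reads in both whole lists. Among clusters with enough reads to be called, at least 13 in replicate 1 and 10 in replicate 2, 9 of 22 (40.9%) and 11 of 19 (57.9%) were enriched. The same shares over the whole lists were 43% and 52%. The exact 95% intervals of the cytoskeleton shares, 20.7 to 63.6% and 33.5 to 79.7%, are wide and hold these whole-list shares. At the same read minimums the cytoskeleton transcripts were therefore not told apart from the background of the experiment. The intervals cover counting error only, since clusters of 1 transcript share their source.

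Looser and stricter limits were also compared. With the log2 fold at 1 or more and −log10 p kept at 3, 12 clusters of replicate 1 (13.5%) and 13 of replicate 2 (27.7%) passed, against 4.14% and 6.36% of the whole lists. Among clusters with enough reads these shares were 54.5% and 68.4%, against 57.7% and 62.1%. With limits of 4 for the log2 fold and 5 for −log10 p, 4 and 2 clusters passed, against 0.886% and 1.51% of the whole lists. Among clusters with enough reads the shares were then 18.2% and 10.5%, against 12.3% and 14.8%. The enriched clusters were spread unevenly over the 9 genes.

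**Figure D1:**
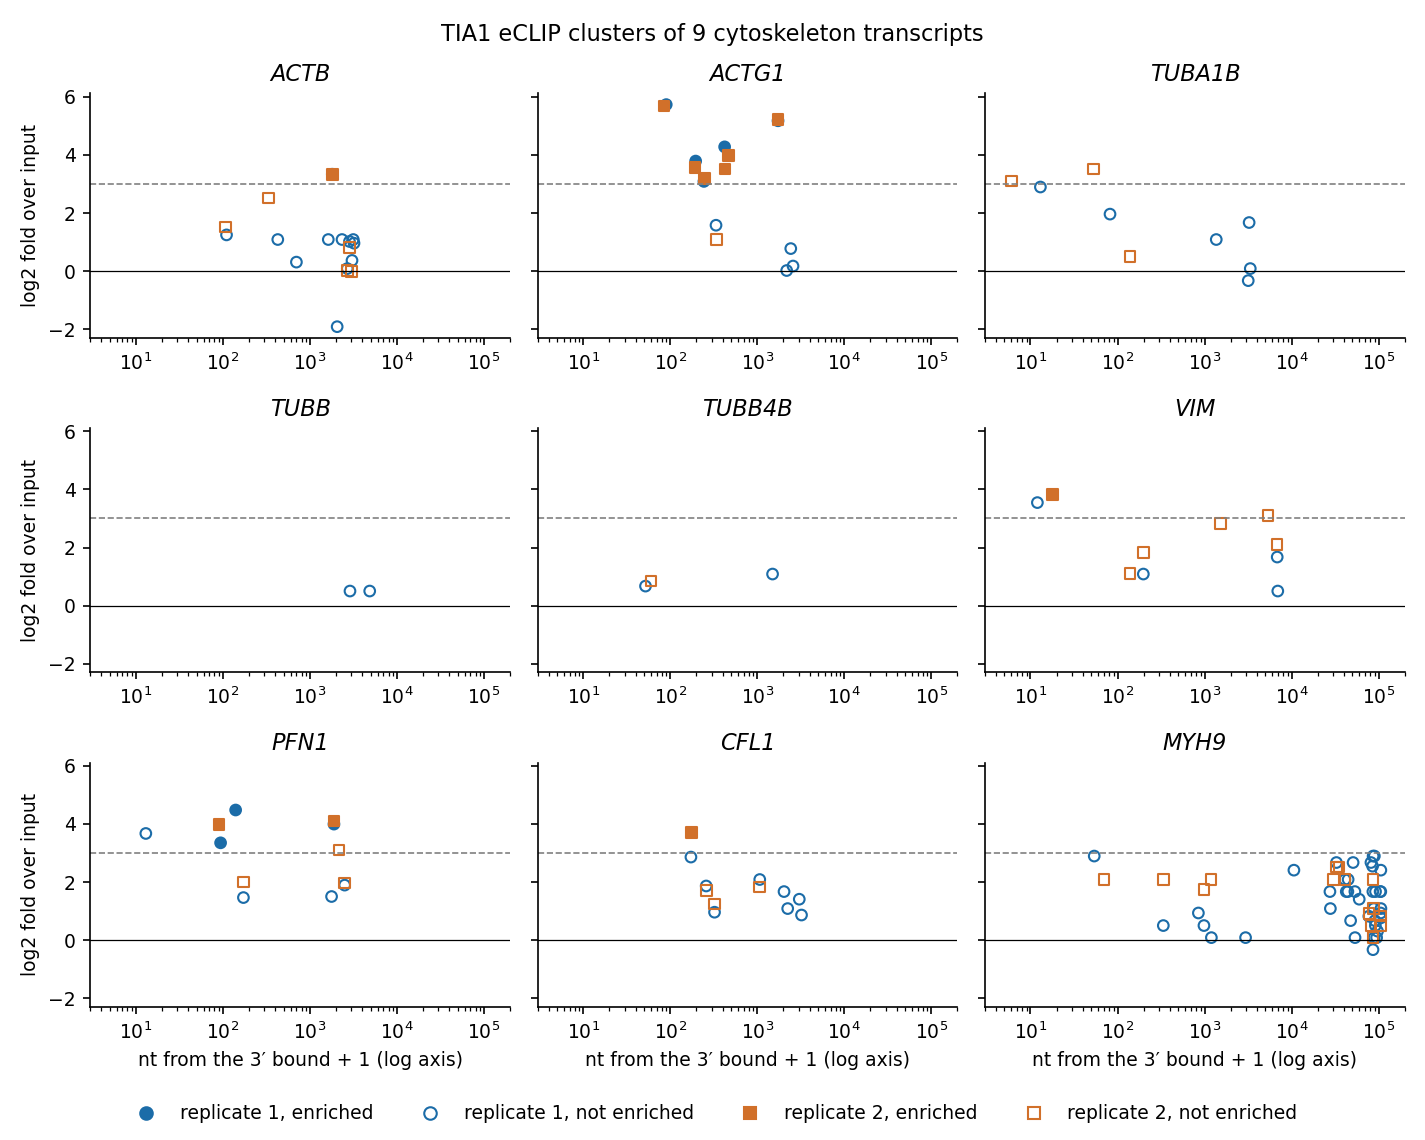
Log2 fold over input of every cluster of the 9 transcripts against its distance from the 3′ bound of the gene in nt (log axis), with filled symbols for enriched clusters, blue circles for replicate 1 and orange squares for replicate 2. The dashed line is a log2 fold of 3. ACTG1 carries 5 and 6 filled symbols, mostly within 500 nt of the 3′ bound, while the tubulins and MYH9 carry none.

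ACTG1, the cytoplasmic gamma actin gene, lies on the minus strand of chromosome 17 from 79476997 to 79479892. It had 9 clusters in replicate 1, of which 5 were enriched, and 7 in replicate 2, of which 6 were enriched. Its strongest peak, chr17:79477086-79477123, began 89 nt from the 3′ bound and had a log2 fold of 5.71 ± 0.03 (SD, n = 2). Replicate 1 had 50 reads there and replicate 2 had 36, with the input at 1, and it ranked 72nd of the 2253 peaks by fold. Where the input is given as 1, its true number may be 0 or 1, so this fold rests on the smallest number that occurs. The SD does not include this, as both replicates are divided by the same input.

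Another 3 peaks of ACTG1 lay further upstream within the same stretch. The peak chr17:79477189-79477231 held 51 reads in replicate 1 and 33 in replicate 2 over 4 in the input, a log2 fold of 3.66 ± 0.14 (SD, n = 2). The peak chr17:79477243-79477289 held 80 and 64 reads over 10, a log2 fold of 3.14 ± 0.07, close to the limit of the list. The peak chr17:79477418-79477495 held 73 and 51 reads over 4, a log2 fold of 4.23 ± 0.06, and had the highest −log10 p of the 10 peaks, 15.0. Replicate 2 listed this last stretch as 2 adjoining clusters with log2 folds of 3.51 and 3.97.

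Between these ACTG1 peaks lay a cluster that was not enriched by fold. From 79477332 to 79477384 replicate 1 held 45 reads over 16 in the input, a log2 fold of 1.58. From 79477334 to 79477379 replicate 2 held 24 reads over 16, a log2 fold of 1.10. This stretch of ACTG1 thus held both high and low folds, with the highest and the lowest at the same places in both replicates. Both replicates are divided by the same input, 1 at the highest and 16 at the lowest, so this likeness is not independent.

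The fifth peak of ACTG1, chr17:79478726-79478772, began 1729 nt from the 3′ bound. Replicate 1 had 34 reads there and replicate 2 had 26, with the input at 1, a log2 fold of 5.19 ± 0.03 (SD, n = 2), and ranked 184th by fold. Nearer the 5′ end, 3 clusters of replicate 1 held 17 to 29 reads over 16 to 22 in the input, with log2 folds of 0.02 to 0.78. These clusters were not listed in replicate 2. Whether any of these positions is exonic, intronic or untranslated was not assigned, because no annotation of hg19 was used here. The GENCODE release 29 transcript of ACTG1 has a 3′ untranslated region of 701 nt.

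ACTB, the cytoplasmic beta actin gene, lies on the minus strand of chromosome 7 from 5566779 to 5570232. It had 12 clusters in replicate 1 and 6 in replicate 2, with 1 enriched in each. That site gave the peak chr7:5568584-5568631, which began 1805 nt from the 3′ bound. It held 19 reads in replicate 1 and 15 in replicate 2 over 2 in the input, a log2 fold of 3.38 ± 0.06 (SD, n = 2), and ranked 1967th of 2253 by fold.

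The cluster of ACTB with the most reads was not enriched by fold. It lay 109 nt from the 3′ bound in replicate 1, with 67 reads over 30 in the input, and 106 nt away in replicate 2, with 60 reads over 30. Its −log10 p values, 4.12 and 5.80, passed 3. At a like distance, the ACTG1 cluster described above had log2 folds of 5.73 and 5.68, against 1.25 and 1.51 in ACTB. The immunoprecipitated reads were 50 and 36 in ACTG1 and 67 and 60 in ACTB, and the input was 1 in ACTG1 and 30 in ACTB.

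The remaining ACTB clusters ran from a log2 fold of -1.91 to 1.09 in replicate 1 and from -0.02 to 2.51 in replicate 2. The uridine-rich stretch of ACTB printed above lies 478 to 507 nt from the 3′ end of its transcript, a distance not measured from the hg19 bound. The clusters listed at 426 and 698 nt from that bound, both of replicate 1, held 8 reads over 4 in the input and 7 over 6. Replicate 2 listed one at 332 nt with 8 reads over 2, a log2 fold of 2.51.

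To compare the pair, reads were summed over all listed clusters of each gene whose reads could be recovered. ACTG1 had 401 reads in replicate 1 over 92 in the input, and 248 in replicate 2 over 39. ACTB had 202 reads over 108, and 110 over 64. The fold of ACTG1 was 2.33 times that of ACTB in replicate 1 (95% interval 1.68 to 3.23) and 3.70 times in replicate 2 (2.34 to 5.84). These are Woolf intervals, which take each read as counted once, and they cover counting error only. A read that touches 2 adjoining clusters may be counted in both, and the number of such reads was not measured.

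Both intervals lie above 1. The sums depend on which clusters each list holds, and they covered 435 and 319 nt in ACTG1 and 416 and 284 nt in ACTB. Over clusters listed in both replicates the ratio was 4.87 in replicate 1 and 3.87 in replicate 2. The ratio was not tested across the 2 replicates, which share 1 input. Reads of ACTG1 and ACTB can also be confused in the coding region: 33.7% of the 30-base words of the ACTG1 coding sequence and 49.0% of those of ACTB occur in a transcript of another gene. In the 3′ untranslated regions the shares were 7.89% and 4.72%. The treatment of reads that map to several places is not given in the sources used here, and its part in these values was not tested.

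**Figure D2:**
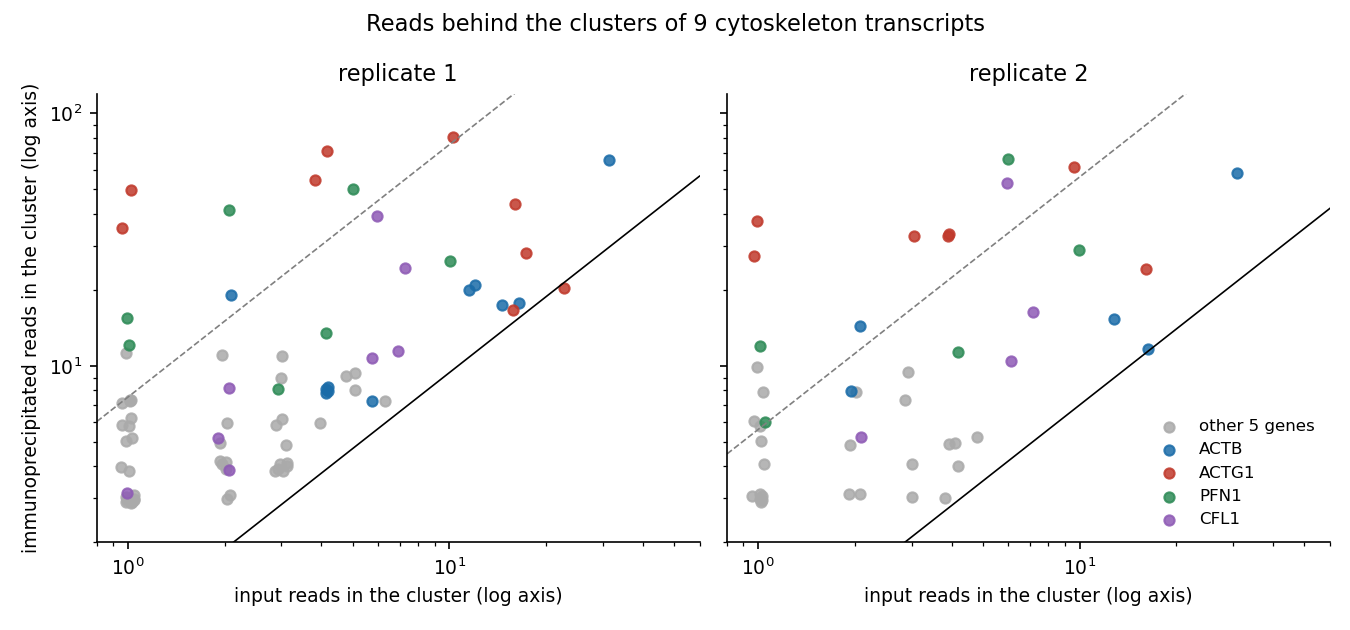
Immunoprecipitated reads against input reads of each cluster with recovered reads (both axes logarithmic), for replicate 1 on the left and replicate 2 on the right, with points shifted slightly so that they do not hide each other. The solid line marks equal library-scaled reads and the dashed line a log2 fold of 3. The enriched ACTG1 points lie above the dashed line at inputs of 1 to 10, while the ACTB cluster with 67 and 60 reads lies between the lines at an input of 30.

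PFN1 encodes profilin, which binds actin monomers and feeds them to growing filaments. The gene lies on the minus strand of chromosome 17 from 4848945 to 4852381. It had 7 clusters in replicate 1, 3 of them enriched, and 5 in replicate 2, 2 of them enriched. The peaks chr17:4849038-4849083 and chr17:4849084-4849114 adjoin each other, beginning 93 and 139 nt from the 3′ bound. The first held 48 reads in replicate 1 and 43 in replicate 2 over 5 in the input, a log2 fold of 3.48 ± 0.19 (SD, n = 2). The second held 42 reads in each replicate over 2, a log2 fold of 4.69 ± 0.30.

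Replicate 2 listed both peaks of PFN1 as 1 cluster with 66 reads over 6 in the input. The peaks held 43 and 42 reads in that replicate, so some reads were counted in both. Right beside them, from 4849116 to 4849152, both replicates listed the same bounds with 26 and 28 reads over 10, log2 folds of 1.47 and 2.00, which are not enriched. Nearest to the 3′ bound, replicate 1 had a cluster 12 nt away with 12 reads and the input at 1. Its log2 fold was 3.67, but its −log10 p of 2.86 missed the limit. The printed uridine-rich stretch of PFN1 lies 21 to 50 nt from the 3′ end of its transcript.

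The third peak of PFN1, chr17:4850832-4850876, began 1887 nt from the 3′ bound. It held 15 and 12 reads with the input at 1, a log2 fold of 4.05 ± 0.07 (SD, n = 2). Summed over its clusters, PFN1 had the highest mean log2 fold of the 9 transcripts, 2.87 ± 0.17 (SD, n = 2), with ACTG1 next at 2.70 ± 0.69. These neighbours differ by less than the spread between replicates.

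CFL1 encodes cofilin, which severs actin filaments. The gene lies on the minus strand of chromosome 11 from 65622285 to 65627362. It had 8 clusters in replicate 1 and 4 in replicate 2. Its single peak, chr11:65622459-65622511, began 174 nt from the 3′ bound and had a log2 fold of 3.28 ± 0.60 (SD, n = 2). It held 41 reads in replicate 1 and 55 in replicate 2 over 6 in the input. By its own cluster replicate 1 stood at a log2 fold of 2.86, under the limit, and replicate 2 at 3.71, so CFL1 was enriched in replicate 2 alone.

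This CFL1 peak had the widest spread between replicates of the 10. Replicate 1 held 42.7% of its reads, against 57.3% of the library totals (exact binomial test, two-sided, p = 0.00507; Benjamini-Hochberg adjusted over 2247 peaks, adjusted p = 0.132). The difference did not pass the adjustment. None of the 10 peaks did, against 41 (1.82%) of all peaks tested. Before adjustment, p was under 0.05 at 1 of the 10, the CFL1 peak, and at 230 of all 2247 tested (10.2%), so this count is at the background. The other 9 had SDs of 0.03 to 0.30 on the log2 scale. The remaining CFL1 clusters had log2 folds of 0.87 to 2.09 in replicate 1 and 1.25 to 1.84 in replicate 2.

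**Figure D3:**
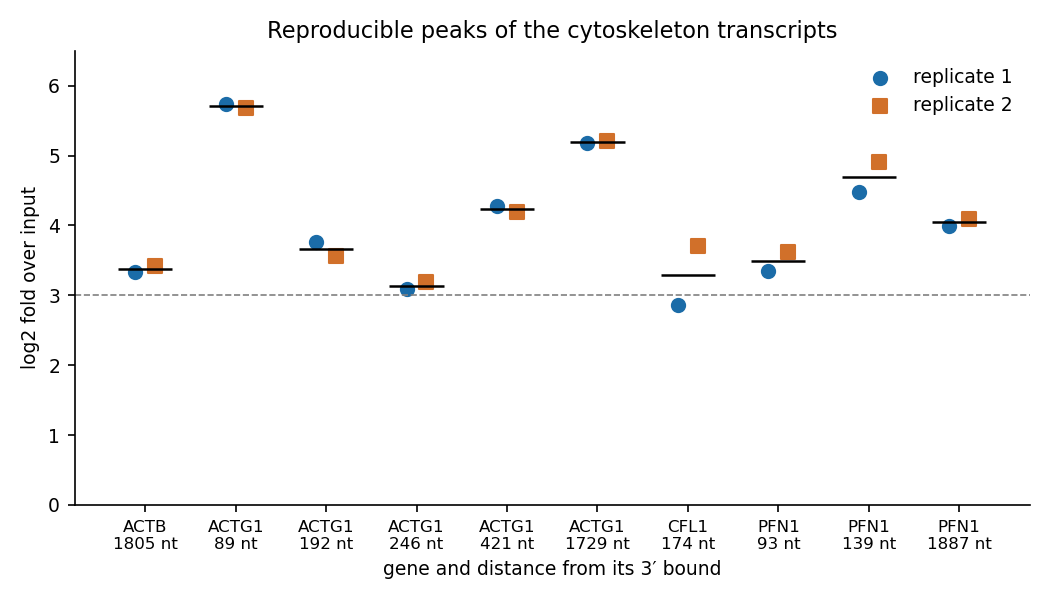
Log2 fold over input of the 10 reproducible peaks in replicate 1 (blue circles) and replicate 2 (orange squares), with the mean as a black bar, ordered by gene and distance from the 3′ bound. The dashed line is a log2 fold of 3. The replicates nearly coincide at the ACTG1 peaks, and CFL1 shows the widest gap, 2.86 and 3.71.

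As a set, the 10 peaks had a median log2 fold of 3.85, against 4.15 over all 2253 peaks, and a median −log10 p of 8.79 against 4.88. They were a little narrower, with a median width of 46.5 nt against 53 nt. These values describe the peaks and carry no test. The bounds of each peak come from 1 replicate, whose fold is as listed, and the fold of the other replicate was derived from the authors' mean. Read numbers came out whole at all 10.

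MYH9 encodes the heavy chain of nonmuscle myosin IIA, the motor that pulls on actin filaments. Its gene is by far the longest, on the minus strand of chromosome 22 from 36677323 to 36784063, and it held the most clusters, 39 in replicate 1 and 15 in replicate 2. None was enriched. Its highest log2 folds were 2.89 (replicate 1) and 2.51 (replicate 2), and its highest −log10 p values 1.97 and 1.70. Reads were not recovered for 6 of the 39 clusters of replicate 1, all at a −log10 p of 0. No other cluster of MYH9 held more than 11 reads in replicate 1 or 9 in replicate 2. With at least 13 and 10 reads needed, none of these others could be called, and the reason for the low read numbers was not tested.

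MYH9 clusters were spread along the gene. In replicate 1, 33 of 39 lay at least 10000 nt from the 3′ bound, and in replicate 2, 11 of 15 did. Each replicate had 11 clusters that overlapped one of the other. Its pooled log2 folds, 1.43 in replicate 1 and 1.41 in replicate 2, stood under those of the whole lists, 1.72 and 1.83. These sums leave out clusters without recovered reads, 6 and 0 in MYH9 and 10691 and 2638 in the whole lists. Per kilobase of gene, MYH9 had 0.365 clusters in replicate 1 and 0.141 in replicate 2, against 3.11 and 2.42 in ACTG1. The gene length includes introns: MYH9 spans 106741 nt with a transcript of 7554 nt, and ACTG1 spans 2896 nt with a transcript of 2256 nt.

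The tubulins form the microtubules, TUBA1B as an alpha and TUBB and TUBB4B as beta subunits. Together they had 10 clusters in replicate 1 and 4 in replicate 2, and none was enriched. TUBA1B (chromosome 12, minus strand, 49521566 to 49525304) had 6 and 3 clusters. Those nearest to the 3′ bound had the highest folds: replicate 1 had a cluster 12 nt away with 7 reads and the input at 1, a log2 fold of 2.89. Replicate 2 had clusters 5 and 52 nt away with 6 and 8 reads over 1, log2 folds of 3.10 and 3.51. Their −log10 p values, 1.47, 1.65 and 2.32, missed the limit of 3.

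TUBB (chromosome 6, plus strand, 30688157 to 30693203) had 2 clusters in replicate 1 and none listed in replicate 2. Each of the 2 held 4 reads over 3 in the input, a log2 fold of 0.50. TUBB4B (chromosome 9, plus strand, 140135711 to 140138159) had 2 clusters and 1 cluster. The one shared by both replicates lay 51 nt from the 3′ bound in replicate 1, with 6 reads over 4, and 59 nt away in replicate 2, with 5 reads over 4. Its log2 folds of 0.67 and 0.84 were far from the limit. The tubulin genes share much of their sequence with relatives and pseudogenes: 86.8% of the 30-base words of the TUBA1B coding sequence, 57.2% of those of TUBB and 25.3% of those of TUBB4B occur in a transcript of another gene. The part of this sharing in their low cluster numbers was not tested.

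VIM encodes vimentin, the intermediate filament protein of mesenchymal cells. The gene (chromosome 10, plus strand, 17270258 to 17279592) had 4 clusters in replicate 1 and 6 in replicate 2. At its 3′ end replicate 1 had a cluster from 17279533 to 17279581 with 11 reads and the input at 1, a log2 fold of 3.55 and a −log10 p of 2.57. Replicate 2 had one from 17279540 to 17279575 with 10 reads over 1, a log2 fold of 3.84 and a −log10 p of 3.01. VIM was thus enriched in replicate 2 alone, just past the limit, and the site is not a reproducible peak. These clusters covered 11 to 59 nt and 17 to 52 nt from the 3′ bound, and the printed uridine-rich stretch of VIM lies 55 to 84 nt from the 3′ end of its transcript.

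Most enriched clusters of these genes began within 500 nt of the 3′ bound, 6 of 9 in replicate 1 and 8 of 11 in replicate 2. ACTG1 held 4 and 5 of these. Of the genes' clusters of any fold, 21 of 89 in replicate 1 and 22 of 47 in replicate 2 began there. The same share over the whole lists was not measured. Of the 10 peaks, 7 began within 500 nt of it, namely 4 of ACTG1, 2 of PFN1 and that of CFL1. The other 3, in ACTB, ACTG1 and PFN1, began 1729 to 1887 nt away. Summed over the 9 genes, clusters within 500 nt had a log2 fold of 2.47 in replicate 1 and 2.58 in replicate 2, against 1.15 and 1.68 for clusters further away. The limit of 500 nt was chosen after the values were seen. The difference was 1.11 ± 0.29 (SD, n = 2) on the log2 scale. These sums weight clusters by their reads. The median cluster had a log2 fold of 2.86 within 500 nt and 1.09 beyond it in replicate 1, but 2.31 and 2.10 in replicate 2. With a limit of 1000 nt the medians of replicate 2 were 2.10 on both sides.

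ACTG1 held the most reads in this comparison, 300 of the 629 within 500 nt in replicate 1 and 222 of 517 in replicate 2. In replicate 1 its log2 fold was 3.19 within 500 nt and 0.91 beyond it, while in replicate 2 the order was the other way, 3.06 and 5.21, with a single cluster of 26 reads beyond. Without ACTG1 the difference was 0.80 in replicate 1 and 0.84 in replicate 2. ACTB showed a smaller step, with 1.23 and 1.60 within 500 nt and 0.87 and 0.91 beyond it. PFN1 and CFL1 were also higher within 500 nt in both replicates. TUBA1B was higher within 500 nt in replicate 1, with 2.26 against 1.47, and had no cluster beyond it in replicate 2. TUBB4B went the other way in replicate 1, with 0.67 within 500 nt and 1.09 beyond it, on 6 reads each. VIM differed between replicates, with 2.41 within and 0.89 beyond in replicate 1, and 2.36 and 2.74 in replicate 2, on 7 to 18 reads each. MYH9 stood at 1.55 and 2.10 within 500 nt, on 11 and 12 reads, and at 1.42 and 1.29 beyond it.

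**Figure D4:**
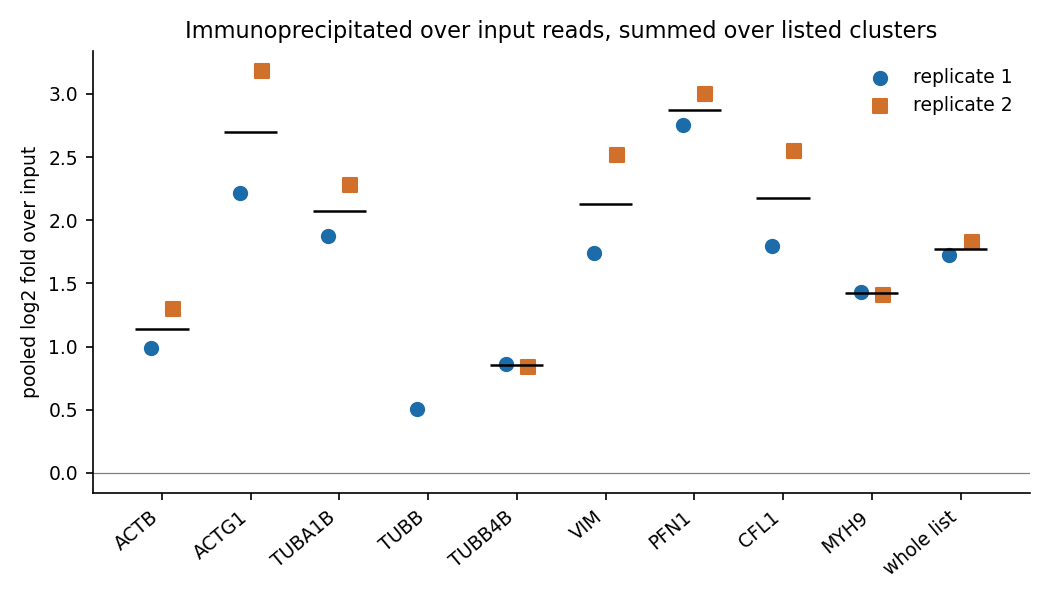
Pooled log2 fold over input of each transcript in replicate 1 (blue circles) and replicate 2 (orange squares), with the mean of both replicates as a black bar, and the same over all clusters of each list at the right. PFN1, ACTG1, CFL1, VIM and TUBA1B lie above the whole list in both replicates, and MYH9, ACTB and TUBB4B below it. TUBB has a value in replicate 1 only.

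By pooled log2 fold the order from high to low was PFN1 (2.87 ± 0.17), ACTG1 (2.70 ± 0.69), CFL1 (2.17 ± 0.53), VIM (2.13 ± 0.55), TUBA1B (2.08 ± 0.29), MYH9 (1.42 ± 0.02), ACTB (1.14 ± 0.21) and TUBB4B (0.85 ± 0.02), each as mean and SD of 2 replicates. TUBB had 0.50 in replicate 1. The first 5 do not differ from their neighbours beyond these spreads. Among these, other settings changed the order. With an input of 1 taken as 0, VIM (2.72) and TUBA1B (2.37) stood above CFL1 (2.17). Over clusters listed in both replicates, ACTG1 (3.24) stood above PFN1 (2.90) and VIM (2.47) above CFL1 (2.32). MYH9 lay below TUBA1B by more than either spread, but TUBA1B rests on 31 and 17 reads over 9 and 5 in the input. The spreads given here do not fully cover counting error, so they do not settle the order. The sums also leave out clusters without recovered reads, unequally between genes and replicates. TUBB4B lay below ACTB by more than either spread, but without replicate 2 the values were 0.87 and 0.99, a gap under the spread of ACTB. ACTB also lay below MYH9 by more than either spread, but over clusters listed in both replicates ACTB had 1.12 and MYH9 1.25, and without replicate 1 ACTB had 1.29 and MYH9 1.41, gaps under that spread. The values of TUBB4B and TUBB rest on 5 to 12 reads.

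Uridine content of the 3′ untranslated region ran in another order. Uridine made up 37.5% of it in TUBA1B, 33.9% in ACTB, 33.0% in ACTG1, 30.8% in TUBB, 30.4% in VIM, 30.2% in PFN1, 28.5% in TUBB4B, 25.6% in CFL1 and 25.2% in MYH9, against a median of 29.4% over 13493 transcripts. Runs of 5 or more uridines on the transcript strand, TTTTT, numbered 6 in ACTB, 5 in MYH9, 4 in TUBB, 3 in VIM and PFN1, 2 in CFL1, 1 in ACTG1 and TUBA1B, and 0 in TUBB4B. Such a run occurs in 73.3% of all 3′ untranslated regions examined. ACTG1 had fewer runs than ACTB and the higher pooled folds, but runs were counted in the 3′ untranslated region and folds over the whole gene. A relation between them was not tested. A run is a description of the sequence and not a binding site.

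The replicates mostly found the same enriched sites in these genes. All 9 enriched clusters of replicate 1 overlapped an enriched cluster of replicate 2, and 9 of 11 (81.8%) did in the other direction, the exceptions being CFL1 and VIM. Over the whole lists the shares were 63.4% and 57.1%. Of clusters of any fold, 37 of 89 in replicate 1 (41.6%) and 38 of 47 in replicate 2 (80.9%) had an overlapping cluster in the other replicate, against 28.9% and 45% over the whole lists. Read numbers per cluster were also higher in these genes, and their part in these shares was not tested. Clusters below the input were few, 3 of 89 in replicate 1 (1 each in ACTB, TUBA1B and MYH9) and 1 of 47 in replicate 2 (in ACTB), against 5.68% and 3.98% of the whole lists. Among clusters with enough reads there were 0 of 22 and 0 of 19, against 0.0406% and 0.0738%. The clusters below the input in these genes had no recovered reads. None could enter this count, so it shows nothing about read depth.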

How the data were processed

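The authors deposited 3 lists without headers, 1 of clusters per replicate and 1 of reproducible peaks for both. The submitters' processing notes name hg19, SAMtools 1.4.1, STAR 2.4.0i and cutadapt (1.9.1 and 1.14). What each tool did and which program called clusters is not given in the sources used here. From the values, the deposited −log10 p compares an interval with the input, with a ceiling of 400, and the deposited log2 fold is the library-scaled ratio of immunoprecipitated to input reads.

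Reads were recovered from the steps of the log2 folds and from the p-values (Fisher's exact test where a number was under 5, otherwise chi-square with continuity correction; relative tolerance 2e-05, absolute 5e-06). Totals were 2683407 reads in replicate 1, 1997817 in replicate 2 and 2851338 in the input. Reads were unique for 89.6% and 96.0% of clusters, and for 80 of 89 and 46 of 47 here. The others here, all at a −log10 p of 0, enter no sum, which can raise the pooled folds. A read that touches 2 adjoining clusters may enter a sum more than once. Recovery was tried on values computed from reads already recovered, with the same formula and totals. This checked the inversion only and could not test the totals. Of 6 multiples tried for the totals, the one used matched 1285 of 1426 values.

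Intervals were assigned by an overlap of 1 nt on the same strand, from 1-based hg19 positions. Distances run from the gene's 3′ bound to the nearest base. All 9 genes are named, with every peak and the enriched clusters. Members, lists and limits were chosen with earlier results of these data known. The 65 other cytoskeleton genes listed for comparison were not analysed here, as no hg19 annotation was used. Peak read shares were tested with an exact binomial test with Benjamini-Hochberg adjustment (scipy 1.17.1, statsmodels 0.14.6). Transcript sequences are from GENCODE release 29.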

Additional observations from a re-analysis of the deposited data

How the results depend on the processing

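No paired analysis was possible because the input has 1 library that both replicates share. At a log2 fold of 4 and a −log10 p of 5, enriched clusters numbered 4 in replicate 1 and 2 in replicate 2 (main 9 and 11), reproducible peaks 4 (main 10), and the mean share of enriched clusters was 4.37% (main 16.8%). That share was 49.4% among clusters with enough reads and 26.2% without MYH9, and 10.1% to 23.4% with 1 replicate left out. On the opposite strand 0 clusters were enriched in either replicate. The share of clusters below the input, 2.75%, was 0% among clusters with enough reads, which these clusters could not enter without recovered reads. Over clusters listed in both replicates, the log2 ratio of ACTG1 over ACTB was 2.12 (main 1.55), and 1.22 to 1.89 with 1 replicate left out; it and the limits of 300 and 1000 nt (differences of 1.01 and 1.03, against 1.11 at 500 nt, and 0.90 to 1.31 with 1 replicate left out) were chosen after seeing the data. Without ACTG1 the difference by distance was 0.82. The count of peaks was 9 to 10, the share below the input 2.13% to 3.37% and the pooled log2 fold 1.74 to 2.30 with 1 replicate left out. No value changed sign in the 74 alternatives, but counts and shares could not do so. Of these alternatives, 10 of 40 for the main results and 7 of 34 for the pooled folds of single genes moved. A value moved when it shifted by at least the spread between replicates or, for counts, beyond a set ratio. No cluster of MYH9 or the tubulins with recovered reads held the fewest reads of any enriched cluster, 13 in replicate 1 and 10 in replicate 2. The reason for their low read numbers was not tested.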
